A study of Oryctolagus cuniculus with 8 samples.

Results

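The genes of selenium transport and of the selenoproteins were followed in the rabbit retina under 4 diets, and the question was whether the fall of SELENOP with dietary sucrose was shared by its receptors and by the glutathione peroxidases. Members were the 8 genes SELENOP, LRP8, LRP2, GPX1, GPX3, GPX4, SELENOK and SELENOF, and a member was found where a row of the expression table carried its symbol. This held for 4 of 8 (SELENOP, LRP8, LRP2 and GPX1), out of 25666 genes in all, and GPX3, GPX4, SELENOK and SELENOF were not analysed here. Of the 19293 protein-coding genes, 5996 carried no symbol, so a gene without a row of its name may still be among them. The members were selected on the measured FPKM of SELENOP, which was lower in the diets with sucrose, and their values in that comparison are therefore given as a description, with no test.

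Wild-type male Chinchilla rabbits entered the study at 12 to 16 weeks and were about 10 months old at sampling, after 6 months on their diet. ND was standard chow alone. HFD chow was supplemented with lard (10%) and cholesterol (0.5%), HSD chow with sucrose (40%), and HFSD chow with the lard and cholesterol of HFD together with sucrose at 35%. RNA of dissected retinas was sequenced, with 2 retinas per diet and 8 in all. The labels do not say whether the 2 retinas of a diet came from different rabbits, so the spread between them may be smaller than that between animals, and sucrose was given at 40% in HSD and 35% in HFSD.

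Selenoproteins contain selenocysteine, an amino acid that is inserted at UGA codons with the help of a stem-loop in the mRNA (the SECIS element). SELENOP is a secreted selenoprotein with many selenocysteines and carries selenium in plasma. It is made mainly by the liver but also locally in other tissues, and cells take it up through receptors of the LDL receptor family, of which LRP8 (apoER2, also a receptor for reelin) serves brain and testis and LRP2 (megalin) serves the kidney. GPX1 and GPX4 are selenium-dependent glutathione peroxidases inside cells, and GPX3 is the secreted form. GPX1 is known as a selenoprotein whose mRNA falls readily when selenium is short.

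Values are FPKM, the fragments on a gene divided by its length and by the depth of the library, and can be compared between genes. Differences are given on the scale of log2(FPKM + 1), where a difference of -1 is close to a halving for an abundant gene. The depth by which FPKM was divided ran from 15764577 to 22785832 per library. In this bulk tissue, fewer cells of a type and less RNA per cell cannot be told apart. The rod gene PDE6A, of the phosphodiesterase of phototransduction, was at 729.5 to 1063 FPKM in the 8 retinas, so a marker of the main cell type of the labelled tissue was abundant in each. The retina of HSD replicate 2 stood apart, with 505.6 FPKM summed over 8 muscle marker genes against at most 1.97 in the other 7 libraries. Results without it are given for SELENOP, GPX1 and some other genes.

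SELENOP was among the more abundant transcripts of the retina, with 385 of 12204 tested genes above its mean level. The ND retinas had 281.5 and 237.9 FPKM of it, the HFD retinas 263.3 and 287.0, the HSD retinas 139.9 and 129.3, and the HFSD retinas 136.0 and 119.6. All 4 retinas of sucrose-fed rabbits lay below all 4 retinas of rabbits without sucrose, and nothing lay between 139.9 and 237.9 FPKM. The mean was 131.2 ± 8.88 FPKM (SD, n = 4) with sucrose and 267.4 ± 22.2 (SD, n = 4) without, a level 50.9% lower. The log2 difference with sucrose was -1.02 ± 0.095 (SE). It was -0.94 ± 0.13 for HSD against ND and -1.10 ± 0.13 for HFSD against HFD, so the drop was present on both backgrounds of fat. Among all genes tested, 141 (1.16%) had a lower difference with sucrose than SELENOP.

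The order of the SELENOP diet means was HFD (275.1 ± 16.8 FPKM, SD, n = 2), ND (259.7 ± 30.9), HSD (134.6 ± 7.52) and HFSD (127.8 ± 11.6). HFD and ND overlapped in their retinas, and so did HSD and HFSD. Only the step between ND and HSD was wider than the spread within either diet. Without the retina that carried muscle transcripts, the difference of SELENOP with sucrose was -0.99.

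**Figure D1:**
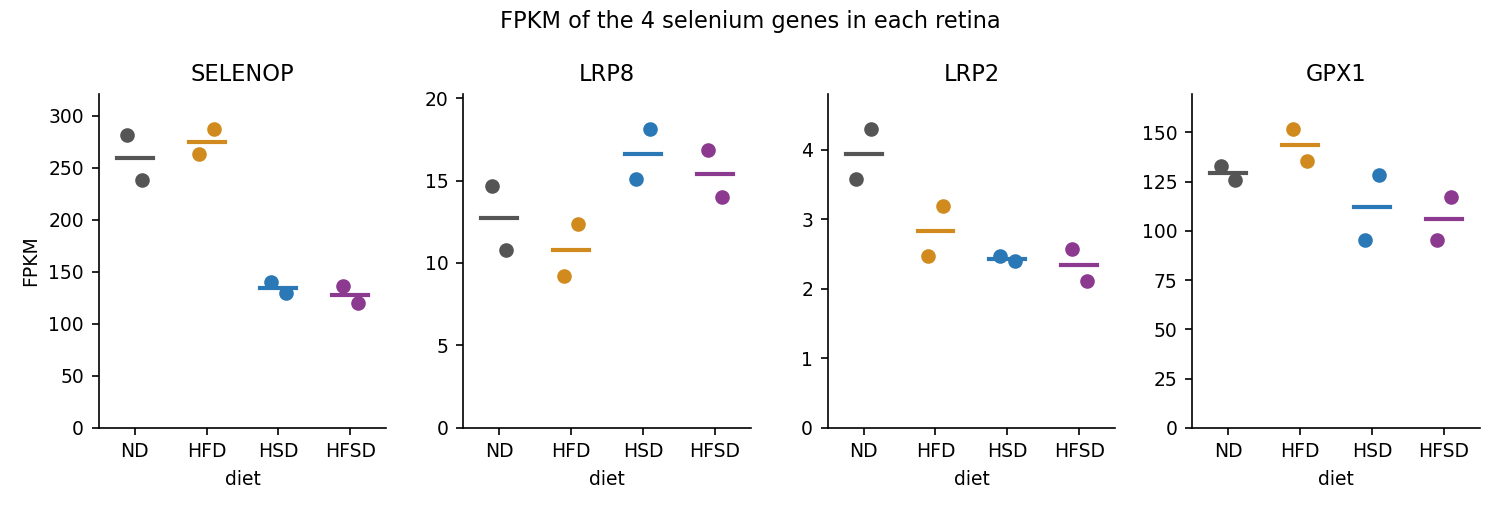
FPKM (y axis, from 0, with a scale of its own in each panel) of SELENOP, LRP8, LRP2 and GPX1 by diet (x axis). Points are the 2 retinas of a diet, and bars are their mean. The 4 SELENOP values with sucrose sit between 119.6 and 139.9 FPKM, all below the 4 values without it, whereas in the other 3 genes the retinas with and without sucrose overlap.

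LRP8, the receptor that takes up SELENOP in brain, was present at a far lower level and had a higher mean with sucrose. The ND retinas had 14.7 and 10.8 FPKM of LRP8, the HFD retinas 9.23 and 12.4, the HSD retinas 15.1 and 18.1, and the HFSD retinas 16.8 and 14.0. Both HSD retinas lay above both ND retinas, but the 4 retinas with sucrose overlapped with the 4 others, since the lowest HFSD retina (14.0) was below the highest ND retina (14.7). The mean with sucrose was 16.0 ± 1.81 FPKM (SD, n = 4) against 11.8 ± 2.33 without, and the log2 difference was 0.43 ± 0.14 (SE). The overlap rested on single retinas, as without ND replicate 1 or without HFSD replicate 2 all retinas with sucrose were above the others. For 95.7% of tested genes the difference with sucrose was lower than that of LRP8.

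LRP2, the large endocytic receptor that binds SELENOP in the kidney, was near the lower end of what was tested, with 10315 genes above its mean level. In FPKM, the ND retinas had 3.58 and 4.30, the HFD retinas 2.47 and 3.19, the HSD retinas 2.47 and 2.40, and the HFSD retinas 2.57 and 2.12. Both retinas of each of the 3 other diets lay below both ND retinas, the high-fat diet without sucrose included. The order of the means was ND (3.94 ± 0.503 FPKM, SD, n = 2), HFD (2.83 ± 0.509), HSD (2.44 ± 0.0506) and HFSD (2.34 ± 0.320), and the HFD, HSD and HFSD retinas overlapped. The log2 difference with sucrose was -0.36 ± 0.13 (SE), smaller than that of SELENOP, and the retinas with and without sucrose overlapped through HFD replicate 1. Without that retina the 3 left without sucrose were all above the 4 with it.

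GPX1, which reduces hydrogen peroxide with glutathione, was an abundant transcript like SELENOP. Its FPKM was 133.0 and 126.0 for the ND retinas, 151.5 and 135.2 for the HFD retinas, 95.5 and 128.4 for the HSD retinas, and 95.1 and 117.1 for the HFSD retinas. Both HFD retinas lay above and both HFSD retinas below the ND retinas, while HSD was split, with 1 retina at the level of ND. The mean with sucrose was 109.0 ± 16.5 FPKM (SD, n = 4) against 136.4 ± 10.8 without, 20.1% lower, and the log2 difference was -0.33 ± 0.12 (SE). The retinas overlapped through HSD replicate 2 (128.4) and ND replicate 2 (126.0). HSD replicate 2 is the retina with muscle transcripts, and without it the difference of GPX1 was -0.44 and its 3 remaining retinas with sucrose lay below all others.

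Thus 1 of 4 members (SELENOP) had all sucrose retinas below all others, where 6.48% of the 12204 tested genes did so, and 0 of 4 had all of them above, where 6.39% did so. The fold limits of the study were applied to diet means, so that a gene passed when the mean FPKM of a diet, plus 1, was more than 54% above or more than 35% below that of ND, plus 1. Whether the study used means is not given in its text, and the genes passing here need not be those of the study. By this rule SELENOP was lower in HSD, where 2.42% of protein-coding genes were lower, and in HFSD, where 2.40% were. LRP8, LRP2 and GPX1 passed in no diet, and no member passed in HFD, where 1.76% of genes passed in either direction. LRP2 came closest of these 3, at 0.695 of ND in HSD and 0.676 in HFSD on that scale.

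**Figure D2:**
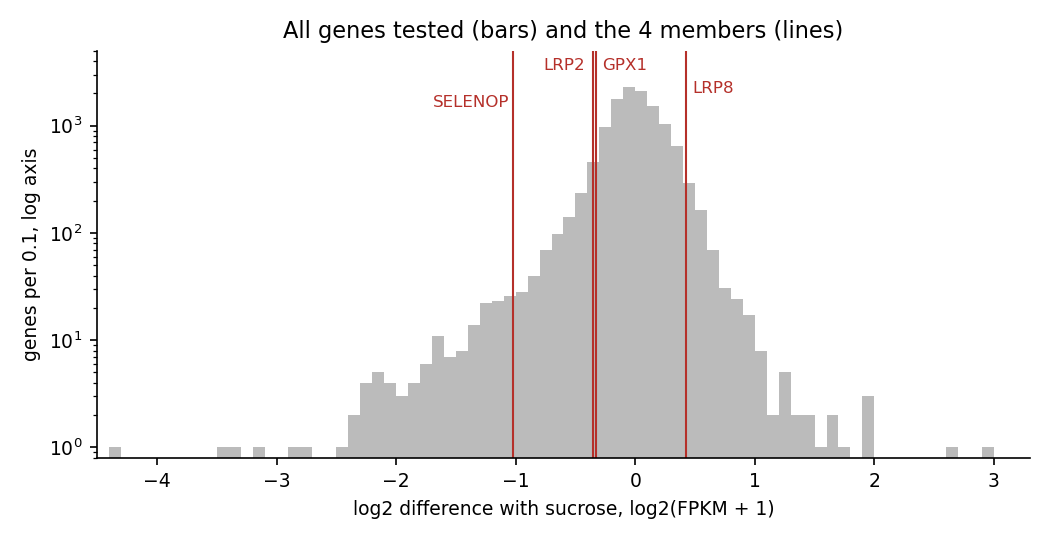
Number of genes (y axis, log scale) by log2 difference with sucrose on log2(FPKM + 1) (x axis, bins of 0.1) for the 12204 genes tested, with red lines at the members. SELENOP stands in the lower tail at -1.02, LRP2 (-0.36) and GPX1 (-0.33) at the lower shoulder, and LRP8 (0.43) at the upper shoulder.

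The recovered fragments show how much counting lies behind these levels. SELENOP, over a recovered length of 1195 bases, had 2256 to 6581 fragments per retina, LRP8 (6193 bases) 1142 to 2374, LRP2 (13962 bases) 466 to 1062 and GPX1 (759 bases) 1143 to 2297. The counting error at the lowest of these was 2.11% for SELENOP, 2.96% for LRP8, 4.63% for LRP2 and 2.96% for GPX1. These cover counting only. The low FPKM of LRP2 thus came from 466 or more fragments per retina spread over a long transcript.

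The effect of fat was not used to choose the members and was tested with limma. With fat, averaged over both sucrose levels, SELENOP differed by 0.0055 on the log2 scale (95% confidence interval -0.22 to 0.23), LRP8 by -0.16 (-0.49 to 0.17), LRP2 by -0.21 (-0.50 to 0.09) and GPX1 by 0.04 (-0.25 to 0.32). The limma adjusted p, over 12204 genes, was 0.9996 for each. None of the 4 was called at an adjusted p under 0.05 (0 of 4, against 0.00819% of all genes, and 0 of 4 at an unadjusted p under 0.05 by limma, against 3.20% of all genes, and by voom). The SELENOP interval leaves out any change with fat of the size seen with sucrose. For LRP2 the interval reaches to -0.50, so a difference of that size is not left out by these retinas.

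The interaction asks whether the difference with sucrose depended on fat. It was -0.16 ± 0.19 (SE) for SELENOP, 0.12 ± 0.28 for LRP8, 0.33 ± 0.25 for LRP2 and -0.21 ± 0.24 for GPX1, with a limma adjusted p of 0.999 for each. Leaving out a retina moved these by over 1.5 times, for SELENOP to -0.042 without ND replicate 2 and for GPX1 to -0.0019 without HSD replicate 2. Here 0 of 4 members were called, against 0.00819% of all genes, and 0 of 4 had an unadjusted p under 0.05, against 3.74%. HFD against ND called 0 of 4 members (0.00819% of all genes), with the lowest log2 difference in LRP2 (-0.37 ± 0.18, limma adjusted p = 0.998). HFSD against HSD called 0 of 4 members and 0% of all genes, where 2.75% had an unadjusted p under 0.05, and the 4 members differed by -0.10 to -0.04. With 2 retinas per diet the intervals are wide, and these values do not show that the diets acted alike.

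Of 25 selenoproteins listed, 13 had a row of their symbol, and beyond SELENOP and GPX1 there were 11, of which 9 passed the filter of 1 FPKM in at least 2 libraries. In these the sucrose comparison was tested. None was called by limma (0 of 9, against 0.344% of all genes), and the median log2 difference was -0.09, beside -0.0073 over all genes. Thioredoxin reductase 2 (TXNRD2, mitochondrial) differed by -0.26 ± 0.082 (SE, limma adjusted p = 0.184). The methionine sulfoxide reductase MSRB1 differed by -0.28 ± 0.099 (limma adjusted p = 0.213), and SELENOI, an ethanolamine phosphotransferase, by 0.33 ± 0.12 (limma adjusted p = 0.208). These 3 of 9 had an unadjusted p under 0.05, where 18.3% of all genes did. The cytosolic TXNRD1 differed little, at 33.1 to 36.1 FPKM in all 8 retinas.

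SELENOS, a protein of the endoplasmic reticulum that takes part in the removal of misfolded proteins, had 32.2 to 33.5 FPKM in the 4 retinas with sucrose and 35.4 to 41.2 in the others (log2 difference -0.18 ± 0.077, SE, limma adjusted p = 0.273). SELENOI had 16.7 to 17.2 FPKM with sucrose and 10.0 to 16.1 without. The groups did not overlap in these genes, which makes 1 of 9 all below (6.48% of all genes) and 1 of 9 all above (6.39% of all genes). DIO3, the deiodinase that inactivates thyroid hormone, passed the fold rule in all 3 diets, higher in HFD (as 0.949% of protein-coding genes were) and in HSD (1.53%) and lower in HFSD. The ND retinas had 0.999 and 5.10 FPKM of it, the HFD retinas 11.8 and 1.54, the HSD retinas 8.29 and 4.03, and the HFSD retinas 1.23 and 1.93. They overlapped with ND in every diet, and limma gave it an adjusted p of 0.946 for sucrose.

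**Figure D3:**
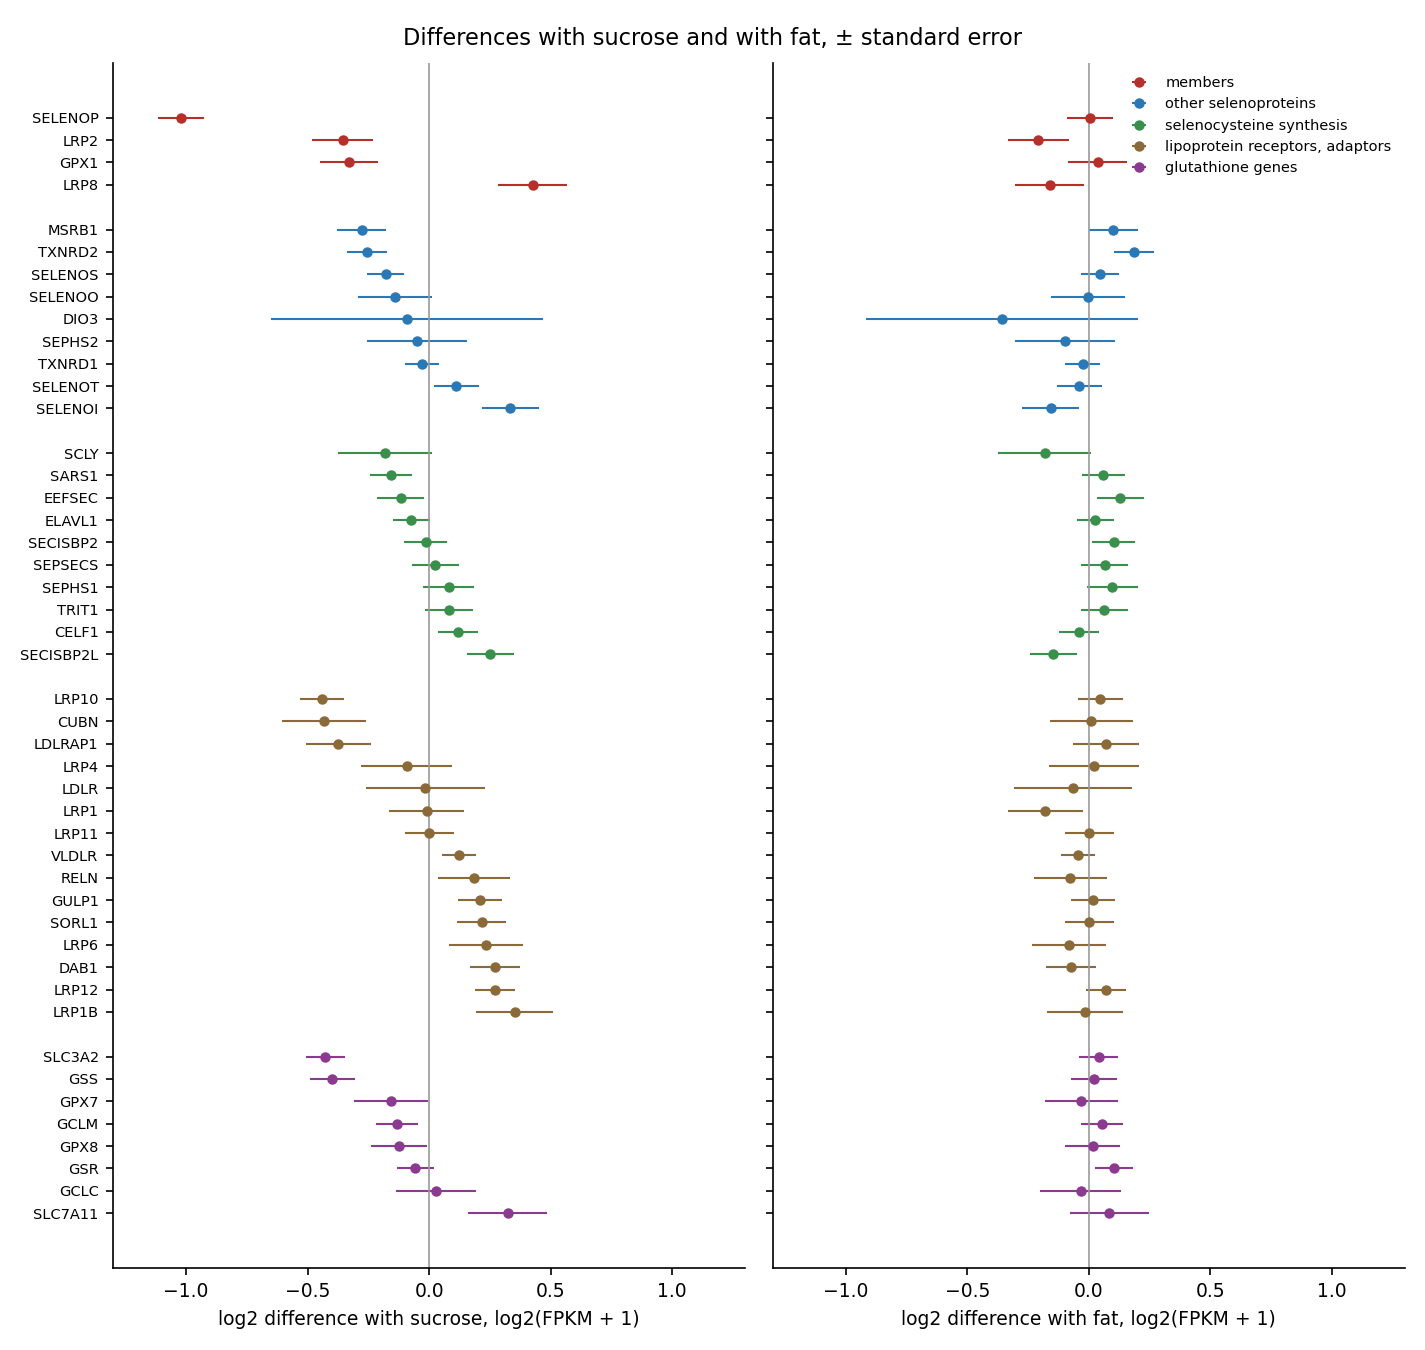
Log2 difference on log2(FPKM + 1) (x axes) with sucrose (left) and with fat (right) for the members and for the tested genes of 4 wider lists (y axis, ordered within each list by the sucrose difference). Points are estimates of the limma model and lines are ± 1 standard error. SELENOP stands alone at -1.02 on the left and sits at 0.0055 on the right, and no other gene shown reaches beyond -0.44 with sucrose.

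In the machinery that makes and inserts selenocysteine, 5 of 10 genes tested were lower and 5 higher with sucrose, where 51.3% of all genes were lower. The median log2 difference was 0.0050, and limma called 0 of 10 (0.344% of all genes). SECISBP2L, a relative of the SECIS-binding protein SECISBP2, differed by 0.25 ± 0.097 (SE, limma adjusted p = 0.237), from 30.0 to 42.2 FPKM without sucrose to 36.6 to 47.4 with it. Without HSD replicate 2, the retina with muscle transcripts, the SECISBP2L difference was 0.16. Selenocysteine lyase (SCLY), which frees selenium from selenocysteine, differed by -0.18 ± 0.19 (limma adjusted p = 0.640). SECISBP2 itself stayed between 16.2 and 19.9 FPKM in the 8 retinas. SARS1 had 103.3 to 113.8 FPKM with sucrose and 114.5 to 138.4 without. It was the 1 of 10 that was lower in all 4 retinas with sucrose, where 6.48% of all genes were.

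Among other receptors of the LDL receptor family and their adaptors, limma called 0 of 15 with sucrose (0.344% of all genes), with a median log2 difference of 0.12. LRP10 had 13.05 to 14.0 FPKM with sucrose and 17.3 to 20.9 without, a difference of -0.44 ± 0.091 (SE, limma adjusted p = 0.098). CUBN (cubilin), the partner of LRP2 in endocytosis, had 2.79 to 5.32 FPKM with sucrose and 5.40 to 6.91 without, a difference of -0.43 ± 0.17 (limma adjusted p = 0.244) that was -0.25 without HFSD replicate 2. LRP12 differed by 0.27 ± 0.082 (limma adjusted p = 0.171). Reelin signalling, which LRP8 also serves, was represented by RELN at 9.96 to 11.4 FPKM with sucrose and 6.62 to 10.95 without, and by the adaptor DAB1 at 5.50 to 6.42 with sucrose and 4.08 to 5.36 without. DAB1 was among the 3 of 15 genes that were higher in all 4 retinas with sucrose (6.39% of all genes), and differed by 0.27 ± 0.10 (limma adjusted p = 0.236).

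In glutathione supply and the peroxidases without selenium, limma called 0 of 8 (0.344% of all genes), and the median log2 difference with sucrose was -0.13. SLC3A2, the heavy chain of the cystine and glutamate exchanger and of other amino acid transporters, was at 54.9, 64.0, 65.1 and 60.02 FPKM in the ND and HFD retinas and at 44.6, 45.3, 45.1 and 45.2 in the HSD and HFSD retinas. The groups did not overlap, and the difference was -0.43 ± 0.080 (SE, limma adjusted p = 0.088). SLC7A11, the light chain of the same exchanger, differed in the other direction, by 0.32 ± 0.16 (SE, limma adjusted p = 0.327). It had 6.16 to 9.63 FPKM with sucrose and 4.61 to 7.96 without, so the groups overlapped. Without HSD replicate 2, the retina with muscle transcripts, the SLC7A11 difference was 0.21. Glutathione synthetase (GSS) had 14.0 to 16.6 FPKM with sucrose and 18.4 to 22.0 without, a difference of -0.40 ± 0.094 (limma adjusted p = 0.120). SLC3A2 and GSS were the 2 of 8 that were lower in all 4 retinas with sucrose, where 6.48% of all genes were. Glutathione reductase (GSR), which recycles the product of the peroxidases, stayed between 22.9 and 27.7 FPKM throughout.

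SELENOK and SELENOF act in the endoplasmic reticulum, and since no row of the table carried either symbol, their partners were followed. Limma called 0 of 7 partners with sucrose (0.344% of all genes), and the median log2 difference was 0.02. The largest estimates were those of UGGT2, a folding sensor related to the glucosyltransferase that binds SELENOF (0.22 ± 0.18, SE, limma adjusted p = 0.545), and SEL1L, a part of the degradation complex (0.20 ± 0.083, limma adjusted p = 0.262). That of UGGT2 was 0.063 without HFD replicate 1 and 0.10 without ND replicate 2. ZDHHC6, the palmitoyltransferase that works with SELENOK, was at 34.6 to 46.0 FPKM without sucrose and 35.4 to 46.8 with it.

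Over the 5 lists together, 49 genes were tested with a median log2 difference of -0.01 with sucrose, and limma called 0 of 49 (0.344% of all genes). At an unadjusted p under 0.05, 7 of 49 were lower, where 9.16% of all genes were, and 5 of 49 were higher, where 9.17% were. By voom on the recovered fragments 0 of 49 were called and 16 of 49 (32.7%) had an unadjusted p under 0.05, where 18.8% of all genes did. All 4 retinas with sucrose lay below the others in 7 of 49 genes (6.48% of all genes) and above in 4 of 49 (6.39% of all genes). With fat, limma called 0 of 49 (0.00819% of all genes), and 0 of 49 had an unadjusted p under 0.05 (3.20% of all genes).

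The genes whose log2(FPKM + 1) followed SELENOP most closely over the 8 libraries, by Pearson r among 9876 named genes, were SLC31A1 (0.966), CYP26B1 (0.965), GGCX (0.964), EMP2 (0.963) and TSPAN33 (0.962). These values describe likeness across diets and were given no test. The copper importer SLC31A1 and the vitamin K-dependent carboxylase GGCX differed in the same direction but by little, SLC31A1 from 7.25 to 7.63 FPKM without sucrose to 6.34 to 6.70 with it. The retinoic acid hydroxylase CYP26B1 went from 2.56 to 4.23 FPKM to 0.511 to 0.958, and EMP2 from 4.55 to 6.47 to 0.721 to 1.08.

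CCDC152, which overlaps SELENOP in the RefSeq gene table of the rabbit assembly mOryCun1.1, had rank 10 with r = 0.950. It was at 1.003 to 2.95 FPKM, 0.752% to 1.09% of SELENOP. The strand setting of the counting is not given in the sources used here, and reads of overlapping genes cannot be told apart without it, so the level of CCDC152 may hold SELENOP reads. LRP8 overlaps an lncRNA and LRP2 a pseudogene in the same gene table, while GPX1 overlaps none.

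Markers of several cell types were lower with sucrose beside SELENOP, although limma called no gene of these lists in the model with 1 mean per diet and all retinas. Müller glia, which span the retina, had 3191 to 4562 FPKM summed over 9 markers without sucrose and 2538 to 2712 with it. Lower with sucrose were 6 of 9, where 51.3% of all genes were. Of these, glutamine synthetase (GLUL) was at 1489 to 2127 FPKM without sucrose and 721.7 to 889.7 with it, a log2 difference of -1.07 ± 0.16 (SE, limma adjusted p = 0.050, just above the threshold, and below it under 4 of 15 alternatives), close in size to SELENOP. RLBP1 differed by -1.005 ± 0.22 (limma adjusted p = 0.102). The glial glutamate transporter SLC1A3, by contrast, was at 179.5 to 202.6 FPKM without sucrose and 185.0 to 190.5 with it. GLUL made up much of the Müller sums. The markers KCNJ10, CA2 and DKK3 overlapped with ND in every diet and passed the fold rule in none. The part of Müller glia in the SELENOP difference was not tested.

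Pigment epithelium markers were lower with sucrose in 11 of 11 tested, where 51.3% of all genes were, with sums of 66.1 to 387.5 FPKM without sucrose and 41.5 to 88.0 with it. They were also low in HFD, where the sums were 135.4 and 66.1 FPKM against 387.5 and 276.5 in ND, with a median log2 difference with fat of -0.94. TTR, the transthyretin of this epithelium, was at 144.1 and 88.6 FPKM in ND but 26.9 and 19.998 in HFD. SELENOP was at 263.3 and 287.0 FPKM in the same HFD retinas. The part of the pigment epithelium in the SELENOP difference was not tested.

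Astrocyte and myelin markers were lower in 9 of 9, where 51.3% of all genes were. Their sums were 464.0 to 1757 FPKM without sucrose and 272.8 to 598.0 with it, and PAX2 and MOBP were listed at 0 in both HSD retinas and in HFSD replicate 1. GFAP was at 524.2, 12.1, 216.1 and 202.9 FPKM in the ND and HFD retinas and at 2.37, 1.08, 3.05 and 69.5 in the HSD and HFSD retinas. S100B made up much of these sums, at 362.4 to 738.0 FPKM without sucrose and 230.1 to 471.1 with it. The part of astrocytes and myelin in the SELENOP difference was not tested. Endothelial markers were lower in 9 of 11, where 51.3% of all genes were, with sums of 406.3 to 484.3 FPKM without and 301.5 to 362.1 with sucrose. The glucose transporter SLC2A1 made up much of these sums, at 245.8 to 303.3 FPKM without sucrose and 168.9 to 210.7 with it, whereas the endothelial genes PECAM1 (0.0485 to 1.62 FPKM without, 0 to 1.27 with) and VWF (0.0065 to 3.77 without, 0 to 0.727 with) were low and overlapped. The 1.27 FPKM of PECAM1 was that of HSD replicate 2, the retina with muscle transcripts. Among the 11 tested, SLC2A1, SLCO1C1, SLCO1A2 and MFSD2A, transporters of the blood-retina barrier, were lower in all 4 retinas with sucrose than in the 4 others (4 of 11, where 6.48% of all genes were). The transporter ABCB1 of the same list overlapped, with 4 fragments in ND replicate 2 and 57 in HFSD replicate 2. All 4 were also lower for 3 of 9 Müller, 3 of 11 pigment epithelium, 0 of 9 astrocyte and myelin, 4 of 9 microglia and 2 of 7 rod markers. CLDN5, of endothelial tight junctions, overlapped, at 1.03 to 28.01 FPKM without sucrose and 0.534 to 6.85 with it. The part of the endothelium in the SELENOP difference was not tested.

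Microglia and macrophage markers were lower in 9 of 9, where 51.3% of all genes were. Their sums were 15.3 to 27.3 FPKM without sucrose and 10.4 to 15.4 with it. Some of them rest on few fragments per retina, 8 to 45 for CD14 and 10 to 79 for TREM2. Of the markers of blood and liver, where most SELENOP of plasma is made, albumin (ALB) was at no more than 0.0593 FPKM in any retina, while transferrin (TF), which the retina also makes, was at 828.2 to 2014 FPKM without sucrose and 694.8 to 901.9 with it. Rod markers were lower in 5 of 7, where 51.3% of all genes were, with a median log2 difference of -0.14. Their sums overlapped, at 34911 to 46181 FPKM without sucrose and 32897 to 37208 with it. Among them, ROM1 was at 2283 to 3107 FPKM without sucrose and 1373 to 2238 with it, and PDE6A at 729.5 to 1029 and 833.7 to 1063. The part of the other cell types in the member differences was not tested.

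**Figure D4:**
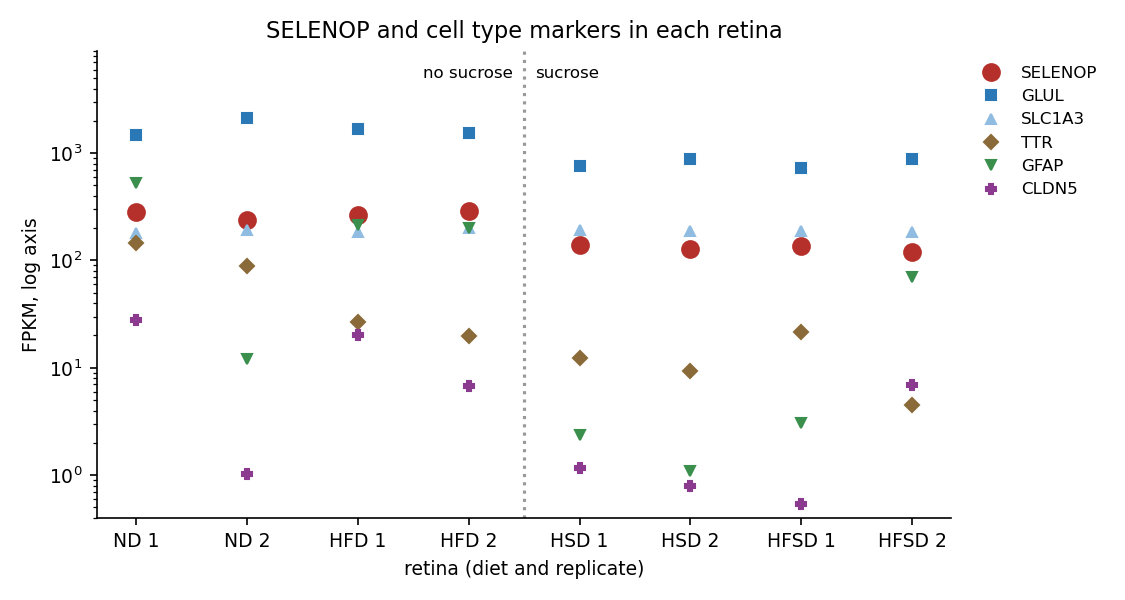
FPKM (y axis, log scale) of SELENOP and of markers of Müller glia (GLUL, SLC1A3), pigment epithelium (TTR), astrocytes (GFAP) and endothelium (CLDN5) in each of the 8 retinas (x axis, by diet and replicate), with the dotted line between retinas without and with sucrose. SELENOP and GLUL are lower in all 4 sucrose retinas, SLC1A3 stays at 179.5 to 202.6 FPKM, TTR is already low in HFD, and GFAP and CLDN5 differ widely between retinas of 1 diet.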

How the data were processed

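RNA of 8 retinas was sequenced on a HiSeq instrument from TruSeq libraries. The authors checked read quality with FastQC, trimmed the reads, mapped them with TopHat2, dropped reads with several locations and computed FPKM per gene. The deposited values are FPKM per gene and library, although their table is named for counts. The genome build, the annotation and the strand setting are not given in the sources used here. No value column lacked a sample (0 columns).

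Members and gene lists were chosen with earlier results of these data known, so they are not independent of the data. The 12204 protein-coding genes that reached 1 FPKM in 2 or more libraries were fitted with limma 3.58.1 in R 4.3.3 on log2(FPKM + 1), with 1 mean per diet, a variance trend and Benjamini-Hochberg adjustment over all genes tested. Sucrose, fat and interaction effects were contrasts of the 4 diet means. The pseudocount of 1 understates fold changes of low genes such as LRP2. P values measure only the spread between these retinas, which may be technical. Fragments were recovered from the steps of the FPKM values, of which 100% above 0 were whole within 0.02. They summed to 15223355 to 22293223 per library. This sum exceeds the depth in ND replicate 2 and HFD replicate 1, so which total FPKM was divided by was not determined. The steps were tested on simulated data.

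The genes named were the members, genes of the wider lists past the fold rule or called, otherwise up to 2 per list with the largest difference with sucrose, marker genes with the largest and smallest difference, and the 5 genes most like SELENOP. TXNRD1, TXNRD2, MSRB1, SELENOI, SELENOS, SECISBP2, LRP12, RELN, DAB1, GSR, SLC7A11, ZDHHC6, CCDC152, GLUL, RLBP1, SLC2A1, SLCO1C1, SLCO1A2, MFSD2A, PECAM1, VWF, S100B, PAX2, MOBP and ALB were added after their values were seen. So were SARS1, KCNJ10, CA2, DKK3, ABCB1, CD14 and TREM2. Markers by this rule not given in the report were SERPINF1 (2.82 to 5.10 FPKM over the 8 retinas), KDR (75.8 to 130.8), CRYM (9.05 to 98.9), ALDH1L1 (2.73 to 5.84), ATP2A1 (0.453 to 62.1), C1QC (1.97 to 7.41) and P2RY12 (0.988 to 2.66). Alternatives were a pseudocount of 0.1, no filter, TPM scaling, median centring, a replicate block, voom on fragments, an additive model and leaving out each retina.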

Additional observations from a re-analysis of the deposited data

Results flagged for a closer look

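In 4 of 53 tested genes (7.55%), all of them in the wider lists, both retinas lay to one side of the comparison diet for 1 diet factor when the other factor was absent and to the opposite side when it was present, near the share of 6.28% among all 12204 genes. EEFSEC, the elongation factor for selenocysteine, had 3.84 and 3.64 FPKM in the ND retinas, 5.07 and 4.78 under HFD, 4.03 and 3.96 under HSD, and 3.93 and 3.63 under HFSD, so it was higher with fat on chow and lower with fat on sucrose, with an interaction of -0.39 ± 0.19 (SE) on the log2 scale. SEPSECS, which makes selenocysteine on its tRNA, had an interaction of 0.21 ± 0.19. It was lower with sucrose on chow (4.08 to 4.13 FPKM in ND, 3.72 to 3.94 in HSD) and higher with sucrose on fat (3.83 to 4.12 in HFD, 4.42 to 4.45 in HFSD). The receptors VLDLR (0.20 ± 0.14) and SORL1 (0.48 ± 0.20) were higher in HFSD than in HSD and lower in HFD than in ND. The limma adjusted p of the interaction was 0.999 for each of the 4. No member met this pattern.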

How the results depend on the processing

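Over all alternatives, the counts of members called with fat, in the interaction, in HFD against ND and in HFSD against HSD, and of wider-list genes called with sucrose or fat, stayed at 0. The difference of SELENOP with sucrose stayed between -1.08 and -0.94. The number of members with all sucrose retinas lower was 1 to 2 when a retina was left out (2 without ND replicate 2 or HSD replicate 2, by GPX1, and without HFD replicate 1, by LRP2). In each diet 1 of 52 wider-list genes passed the fold rule in the main setting. Of protein-coding genes, 1.76% passed in HFD in either direction, 2.42% were lower and 1.53% higher in HSD, and 2.40% were lower in HFSD. The wider-list count was 3 in HSD and 3 in HFSD with a pseudocount of 0.1, and 2 in HSD with TPM scaling. Leaving out a retina gave 1 to 2 in HFD, 1 to 4 in HSD (4 without ND replicate 2, 2 without HSD replicate 2) and 0 to 3 in HFSD (3 without ND replicate 1, 0 without ND replicate 2), and HFD had 2 without ND replicate 2 or HFD replicate 2. Differences near 0 changed sign. For SELENOP with fat it was -0.027 with TPM scaling and -0.0024 by voom, and -0.055 to 0.066 with a retina left out. On leaving out retinas, GPX1 with fat ran from -0.068 to 0.14, the interactions of SELENOP from -0.28 to -0.042, LRP8 from -0.086 to 0.32, LRP2 from 0.19 to 0.46 and GPX1 from -0.42 to -0.0019, LRP8 with fat from -0.26 to -0.058, CUBN with sucrose from -0.62 to -0.25, UGGT2 from 0.063 to 0.38, SECISBP2L from 0.16 to 0.34, SLC7A11 from 0.21 to 0.43, DIO3 with sucrose from -0.68 to 0.49 and SCLY with sucrose from -0.38 to 0.021. GLUL was called under 4 of 15 alternatives (adjusted p from 0.026 to 0.187 over all 15), RLBP1 (0.020) and TF (0.024) without ND replicate 1, and TTR (0.023) without HFSD replicate 1. No scaling moved the median of all genes by more than 0.0999. The causes were not tested.

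The labels give replicates only a number, and replicate differences correlated between diets at -0.165 to 0.081, so the numbers were not read as pairs. With the replicate block, 0 members and 0 wider-list genes were called, while over all genes 25 were called with sucrose against 42 without the block and 18 by voom, 0 in the interaction against 1, 4 against 2 in HFSD against ND, and 3 against 1 in HFSD against HFD. With 2 retinas per diet, intervals are wide.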
